A study of Mus musculus with 60 samples.

Results

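The genes described here are those of the mouse mitochondrial genome, read from poly-A RNA sequencing of whole organs. Members were the genes whose symbol carries the mt- prefix, 37 of 55290 named genes in each organ's table: 13 protein genes, 2 rRNA genes and 22 tRNA genes. The tested mice carried the genotype labelled Ftsj1_DF (Ftsj1-deficient) and were compared with mice labelled WT (wildtype). Each genotype was represented by 3 males aged 4 months, fed ad libitum and given no special treatment, and each mouse gave brain, heart, kidney, liver and spleen. Per the labels, 4 of the mice were brothers and the other 2 were brothers, both sets hold both genotypes, and all libraries carry 1 batch label. The labels used here give neither the strain nor how Ftsj1 was disrupted. Ftsj1 encodes a methyltransferase that adds a methyl group to the ribose of bases in and beside the anticodon of cytosolic tRNAs.

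The mitochondrial genome is a small circle whose strands are both transcribed into long precursors, which are cut mostly at the tRNAs that lie between the other genes. Its protein genes encode core subunits of respiratory complexes I, III and IV and of the ATP synthase (complex V), and its rRNAs and tRNAs serve the organelle's own ribosomes. All other subunits come from nuclear genes. Mitochondrial mRNAs and rRNAs receive short 3′ tails of adenosines, through which they can enter a poly-A library, while the tRNAs end in CCA. In human cells the mRNA of ND6, the protein gene of the opposite strand, is known to lack a long tail. Organs with many mitochondria, the heart first among them, devote a large part of their poly-A RNA to these genes.

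3 features of the transcripts bear on what the libraries could count, and the sequences that show them are given from the GENCODE annotation of GRCm38. First, 3 protein genes, mt-Co3, mt-Nd4 and mt-Cytb, end in a lone T, so that their stop codon is completed only when the poly-A tail is added. The last 30 bases of each are shown with that T in capitals.
mt-Co3: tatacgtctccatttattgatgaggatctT
mt-Nd4: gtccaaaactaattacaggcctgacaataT
mt-Cytb: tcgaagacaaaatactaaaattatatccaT
The other 10 protein genes carry a complete stop. Second, mt-Atp8 and mt-Atp6 share 43 bases, and mt-Nd4l and mt-Nd4 share 7 bases, each pair being known to sit on 1 mRNA. By annotation mt-Atp6 also overlaps mt-Co3 on the same strand. The ends of mt-Atp8 and of mt-Nd4l are shown with the bases they share with the next gene in capitals.
mt-Atp8 into mt-Atp6: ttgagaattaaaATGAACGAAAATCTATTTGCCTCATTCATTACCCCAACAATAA
mt-Nd4l into mt-Nd4: caacctactacaATGCTAA
How reads over these shared bases were assigned is not stated in the sources at hand, so the split between partners of a pair is uncertain. Last, the tRNAs are short, and some of them are shown whole with their anticodon in capitals. mt-Tp (proline) had the highest level of the tRNAs, mt-Tn (asparagine) and mt-Tc (cysteine) had an unadjusted p under 0.05 in 1 organ each, and mt-Tf carries phenylalanine, an amino acid whose cytosolic tRNA is a known substrate of FTSJ1.
mt-Tp: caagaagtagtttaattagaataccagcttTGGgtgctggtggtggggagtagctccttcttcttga
mt-Tn: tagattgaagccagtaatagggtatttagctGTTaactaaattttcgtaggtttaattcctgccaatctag
mt-Tc: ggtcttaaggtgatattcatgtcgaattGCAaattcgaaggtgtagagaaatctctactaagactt
mt-Tf: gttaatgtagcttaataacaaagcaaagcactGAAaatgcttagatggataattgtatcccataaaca
The first 3 of these tRNAs are encoded on the light strand and mt-Tf on the heavy strand.

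The tables used here hold no value per library, so depth per library is unknown and each level below is the authors' mean over the 6 libraries of an organ. These means summed to 1.41e+08 normalised counts in heart, 1.28e+08 in spleen, 3.38e+08 in kidney, 2.40e+08 in liver and 2.26e+08 in brain. A gene's level is therefore given as its share of the sum of its own organ's table, in percent or in ppm (10000 ppm are 1%). Levels of the 2 genotypes were implied from the mean and the fold change, taking the fold change as the ratio of 2 group means of 3 mice each, and they carry no error of their own. Both were divided by the same organ sum over the 6 libraries, so they are not shares of each genotype's own RNA. In the authors' deposited table Ftsj1 fell in every organ, from a log2 fold change of -2.70 ± 0.10 (SE) in brain to -3.51 ± 0.15 in liver, leaving between 8.79% and 15.4% of its wildtype level. Markers of each labelled organ were present: the summed level of 4 neuron genes in brain was 4901 ppm in deficient and 4870 ppm in wildtype mice, of 6 cardiomyocyte genes in heart 31131 and 31075 ppm, of 8 kidney tubule and glomerulus genes in kidney 12265 and 12621 ppm, of 6 hepatocyte genes in liver 106430 and 108270 ppm, and of 6 B and T cell genes in spleen 1392 and 1414 ppm. Ms4a1 among the B cell markers is listed at 0. The spleen also held exocrine pancreas RNA in both genotypes, at 32470 ppm in deficient and 26044 ppm in wildtype mice over 6 marker genes, and Pnlip, a pancreatic lipase, ranked 3 by level among all genes there.

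Mitochondrial transcripts made up very different parts of the poly-A RNA of the 5 organs. The 37 genes summed to 29.3% of the level in heart, 13.3% in kidney, 9.06% in liver, 5.84% in brain and 3.29% in spleen. The implied shares by genotype were 27.2% in deficient and 31.3% in wildtype hearts, 13.0% and 13.6% in kidneys, 9.07% and 9.06% in livers, 5.86% and 5.82% in brains, and 3.10% and 3.48% in spleens. Both genotypes are set against the same sum of the organ's table. On that scale the deficient share was the lower one in heart, kidney and spleen and almost equal to the wildtype share in brain and liver. Without values per library these shares have no spread, and their order among organs was not tested.

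mt-Co1, the catalytic subunit of cytochrome c oxidase (complex IV), led in every organ. It held 11.0% of the summed level in heart, 4.37% in kidney, 3.43% in liver, 1.90% in brain and 1.33% in spleen. Among all genes of a table it ranked first in 4 organs and second in liver, behind Alb, the gene of serum albumin. mt-Cytb, the cytochrome b subunit of complex III, came next among the members everywhere, at 3.44% in heart, 1.67% in kidney, 1.09% in liver, 0.590% in brain and 0.354% in spleen. Behind it came mt-Nd1, a complex I subunit, at 2.60% in heart, 1.26% in kidney, 0.545% in brain and 0.290% in spleen. In liver mt-Nd4, another complex I subunit, took that place at 0.844%. This order is that of the listed levels and is uncertain, because near-identical nuclear copies, described below, may hold reads of some members. Gm10925, the copy of mt-Atp6, alone exceeded mt-Cytb in brain (0.623%) and spleen (0.431%), and lay below it in the other organs.

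Per kilobase of transcript the members differed far less in order between organs than in height. The ranks are those of the listed levels. Reads of some of the genes, among them mt-Nd3, may stand under the nuclear copies described below, so the ranks are uncertain. mt-Co1 ranked first of the 15 protein and rRNA genes in all 5 organs, at 71137 ppm per kilobase in heart, 28301 in kidney, 22183 in liver, 12311 in brain and 8582 in spleen. mt-Cytb and mt-Nd1 held ranks 2 and 3 in heart, kidney and spleen and, in the other order, in brain, while in liver mt-Nd2 held rank 3. mt-Nd3, a small complex I subunit, was among the 3 lowest per kilobase in all 5 organs, with a level between 440 ppm per kilobase in spleen and 3252 in heart. mt-Nd6, the complex I subunit of the light strand, had 11849 ppm per kilobase in heart, 5871 in kidney, 2505 in liver, 1980 in brain and 1128 in spleen, a rank between 10 and 14 of the 15.

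The rRNAs stood low in the order in all 5 organs, less so in brain. mt-Rnr1, the RNA of the small mitochondrial ribosomal subunit, had 2681 ppm per kilobase in brain, 2337 in heart, 480 in spleen, 645 in liver and 811 in kidney. mt-Rnr2, the RNA of the large subunit, had 2348 ppm per kilobase in brain, 3945 in heart, 397 in spleen, 521 in liver and 665 in kidney. Together they held 10.7% of the members' summed level in brain, against 3.30% in spleen, 2.90% in heart, 1.59% in liver and 1.37% in kidney. Their ranks per kilobase were 11 and 12 in brain and 13 or lower in the other 4 organs. Poly-A selection keeps only the part of an rRNA that is tailed, so these are levels in the library and not amounts of ribosome.

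**Figure D1:**
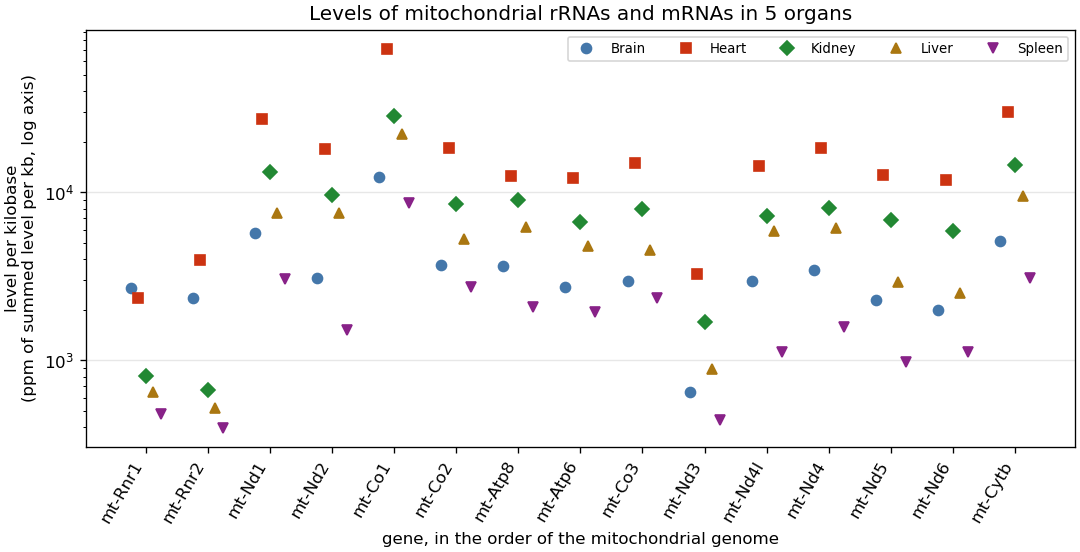
Mean level of the 2 mitochondrial rRNAs and 13 mRNAs per kilobase of transcript, in ppm of the summed level of each organ's table (log axis), with genes in genome order on the x axis and 1 symbol per organ. mt-Co1 is highest in all 5 organs, and both rRNAs stand higher in brain than in kidney and liver, which have more mitochondrial mRNA.

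The tRNA genes split by encoding strand. Of the 8 light-strand tRNA genes, 8 had a level above 0 in all 5 organs and 6 reached a mean of 10 normalised counts in at least 1 organ. Of the 14 heavy-strand tRNA genes, 3 had a level above 0 in all 5 organs and 2 reached 10 in any. Members listed at 0 numbered 4 in heart, 8 in spleen, 9 in kidney, 10 in liver and 8 in brain, and all of them were heavy-strand tRNAs. mt-Td, mt-Tg, mt-Ts2 and mt-Tt, all of the heavy strand, were listed at 0 in every organ. Since genes that most cells use, such as the complex I subunit Ndufa13, were also listed at 0 in every organ, no absence is read from these zeros. By annotation the heavy-strand genes mt-Ti, mt-Tw, mt-Ts2 and mt-Tl2 overlap a gene of their own strand, and no light-strand tRNA gene does. How reads over such overlaps were counted is not known. The strand setting of the counting is not stated in the sources at hand, so reads of a precursor that crosses a tRNA gene on the opposite strand cannot be told apart from reads of the tRNA.

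The 5 tRNAs with the highest mean level over organs were all of the light strand. In the authors' deposited table mt-Tp had a mean of 80948 normalised counts in kidney, 55566 in liver, 38262 in heart, 19480 in brain and 4691 in spleen. Its neighbours in that order were far behind: mt-Tn had 1440 in heart in the authors' deposited table, between 238 and 294 in brain, liver and kidney, and 21.2 in spleen. mt-Tc had 1001 in heart in the authors' deposited table, between 172 and 287 in brain, kidney and liver, and 30.8 in spleen. mt-Tp thus led by over an order of magnitude in each organ, while mt-Tn and mt-Tc had their highest levels in heart. mt-Te (glutamate) ranged from 14.1 in spleen to 151 in kidney in the authors' deposited table. mt-Tq (glutamine) ranged from 7.13 in spleen to 90.8 in heart in the authors' deposited table.

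**Figure D2:**
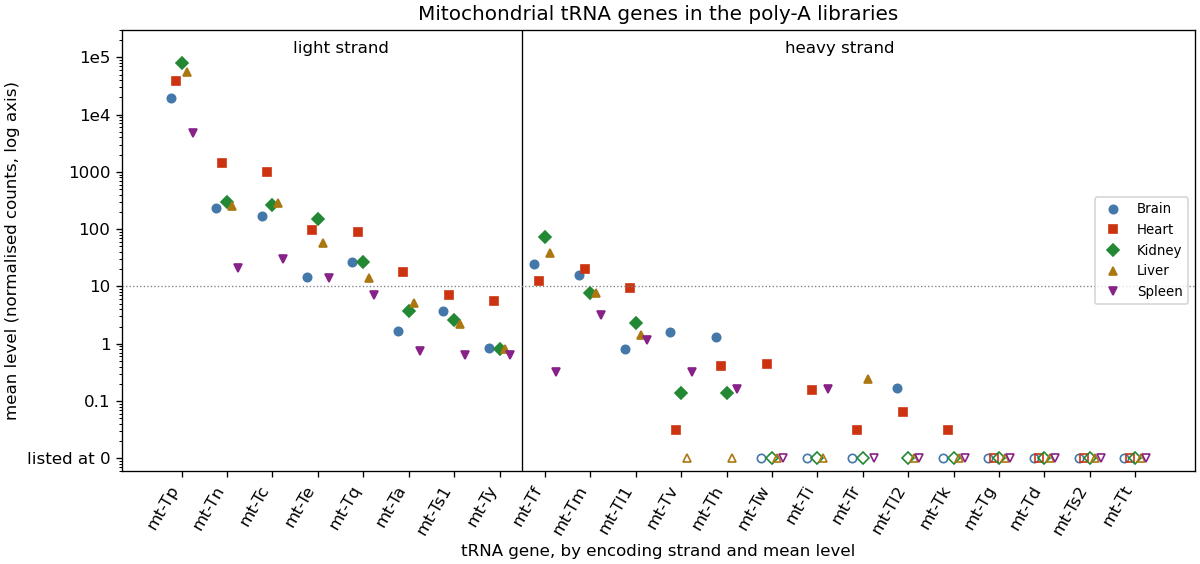
Mean level of the 22 mitochondrial tRNA genes in normalised counts (log axis), grouped by encoding strand and ordered by their mean over organs, with 1 symbol per organ, open symbols for genes listed at 0 and a dotted line at 10. All 8 light-strand genes are above 0 in each organ, and mt-Tp reaches 80948 in kidney.

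Near-identical nuclear copies of several of these genes also had high levels. Aligned to the annotated transcripts of GRCm38, 7 protein genes have a nuclear pseudogene with at least 99% identity: Gm29216 for mt-Co1 (99.8% over 483 bases), Gm28661 for mt-Co2, Gm10925 for mt-Atp6, Gm28437 for mt-Co3, Gm28438 for mt-Nd3 (99.7% over 345 bases), Gm10222 for mt-Nd4l and Gm28439 for mt-Nd4. Over their 681, 678, 783, 294 and 876 aligned bases, Gm28661, Gm10925, Gm28437, Gm10222 and Gm28439 did not differ from the mitochondrial gene. Together the copies held 10.3% of the summed level in heart, 4.98% in kidney, 3.34% in liver, 2.08% in brain and 1.51% in spleen. The level of a copy relative to its mitochondrial gene changed little between organs whose mitochondrial levels differed widely. It was 3.16 to 3.39 for Gm10925, 2.34 to 2.54 for Gm28438, 1.95 to 2.05 for Gm28437, 1.51 to 1.58 for Gm28661, 0.558 to 0.584 for Gm10222, 0.271 to 0.317 for Gm28439 and 0.162 to 0.229 for Gm29216. Reads that match both places cannot be told apart, so the levels of these 7 mitochondrial genes, and their order among the members, are uncertain. With the copies added, a set chosen after its values were seen, the share came to 39.6% in heart, 18.3% in kidney, 12.4% in liver, 7.92% in brain and 4.80% in spleen. mt-Nd1, mt-Nd5, mt-Nd6, mt-Cytb, mt-Nd2, mt-Atp8 and the rRNAs had no annotated copy at that identity.

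**Figure D3:**
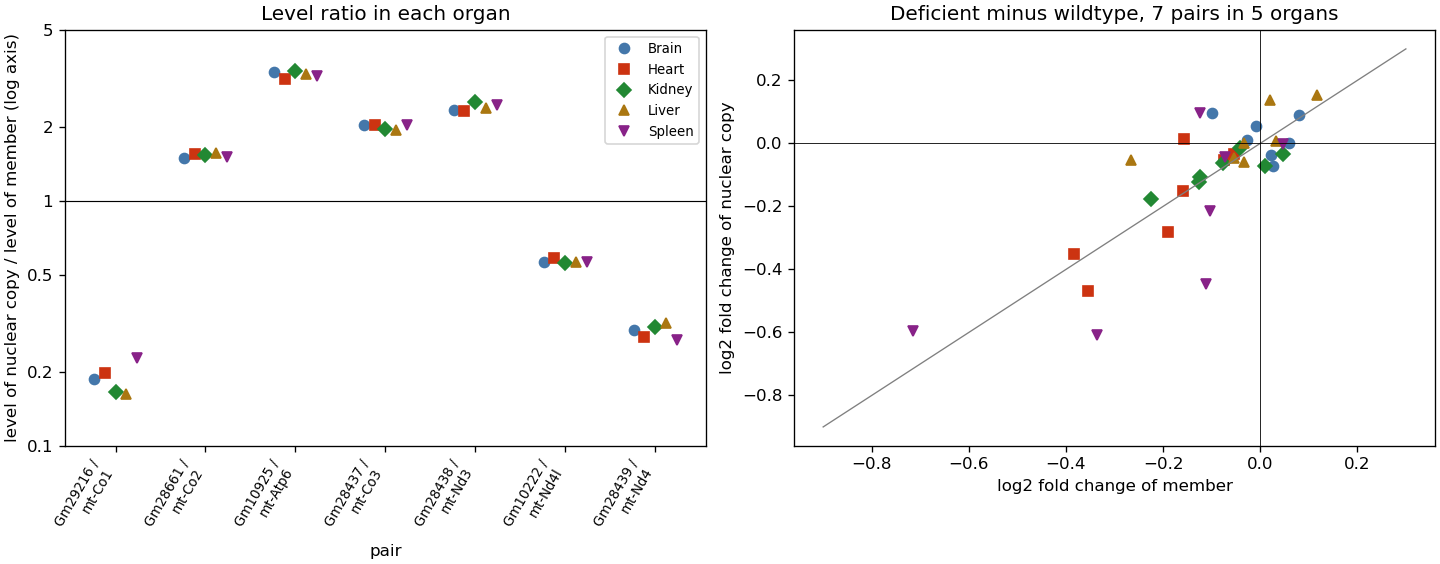
Left, level of each near-identical nuclear copy divided by the level of its mitochondrial gene in 5 organs (log axis, 1 symbol per organ); right, log2 fold change of copy (y axis) against gene (x axis), deficient minus wildtype, with a grey line of equality. Each ratio stays in a narrow band over the organs, such as 3.16 to 3.39 for Gm10925, and the lowest fold changes of both kinds are those of spleen.

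The comparison of deficient with wildtype mice asked whether loss of Ftsj1 goes with a change of these transcripts in any organ. No member passed an adjusted p under 0.05 (DESeq2's test, Benjamini-Hochberg adjustment) in any organ. Of the members with an adjusted p in the authors' deposited table, 0 of 20 were called in brain, where 0.0607% of all tested genes were, and 0 of 26 in heart, where 0.541% were. The count was 0 of 21 in kidney, where 0.987% of all tested genes were called, 0 of 20 in liver (2.29%) and 0 of 20 in spleen (0.0741%). With so few genes called, 0 of 20 to 26 members is near the background in every organ. The smallest adjusted p of a member in the authors' deposited table was 0.658 in heart, 0.387 in spleen, 0.282 in kidney, 0.277 in liver and 1.00 in brain.

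At an unadjusted p under 0.05, 0 of 29 members with a value passed in brain and 0 of 33 in heart in the authors' deposited table, where 2.34% and 5.71% of all genes did. In kidney 1 of 28 passed in the authors' deposited table, where 3.99% of all genes did, and 3 of 27 in liver, where 6.63% did. In spleen 4 of 29 passed in the authors' deposited table, all 4 lower in deficient mice, where 4.7% of all genes passed in either direction and 2.35% with a lower level. The members of 1 organ share precursors and libraries and are not independent of each other. They are described by role below.

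The complex I subunits had medians below 0 in heart and spleen and near 0 in the other organs. The median log2 fold change over 7 genes was -0.31 in heart, -0.26 in spleen, 0.04 in kidney, 0.07 in liver and 0.02 in brain, beside medians between -0.002 and 0.02 over all genes with a mean level of at least 10 in the 5 organs. In spleen mt-Nd5, a membrane subunit of the proton-pumping arm, held an implied 0.149% of the summed level in deficient and 0.210% in wildtype mice. Its log2 fold change in the authors' deposited table was -0.49 ± 0.17 (SE), with an unadjusted p of 0.00359 and an adjusted p of 0.387. mt-Nd4l, the smallest membrane subunit, stood at an implied 0.0252% in deficient and 0.0414% in wildtype spleens. In the authors' deposited table its log2 fold change was -0.72 ± 0.28 (unadjusted p = 0.00973, adjusted p = 0.550). mt-Nd4, which follows it on the same mRNA, was at an implied 0.192% in deficient and 0.242% in wildtype spleens, with -0.34 ± 0.17 in the authors' deposited table (unadjusted p = 0.0434, adjusted p = 0.780). All 3 neighbouring genes were lower in deficient spleens, by a size that the authors' adjusted test did not call.

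mt-Nd5, mt-Nd4l and mt-Nd4 had log2 fold changes of -0.31 ± 0.20, -0.38 ± 0.21 and -0.36 ± 0.24 in heart in the authors' deposited table. In kidney the authors' deposited table gave 0.04 ± 0.18, -0.13 ± 0.15 and -0.22 ± 0.16, and mt-Nd4 was the lowest protein gene there. In brain the values were 0.02 ± 0.11, 0.03 ± 0.14 and 0.08 ± 0.13 in the authors' deposited table, where mt-Nd4 was the highest protein gene. The liver values in the authors' deposited table were 0.04 ± 0.26, 0.12 ± 0.22 and 0.02 ± 0.21. Outside spleen, each of these values lay within 2 standard errors of 0.

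mt-Nd3 was the only protein gene with an unadjusted p under 0.05 in liver. It stood at an implied 0.0280% of the summed level in deficient and 0.0337% in wildtype livers. The authors' deposited table gave -0.27 ± 0.11, with an unadjusted p of 0.0189 and an adjusted p of 0.277. Its near-identical nuclear copy Gm28438 had the higher level of the pair, and with a log2 fold change of -0.05 in the authors' deposited table it lay nearer to 0. In brain mt-Nd3 was also the lowest protein gene, at -0.10 ± 0.09 in the authors' deposited table. mt-Nd2, which encodes another subunit of the membrane arm, was the highest protein gene in liver at 0.13 ± 0.22 in the authors' deposited table.

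mt-Nd6 is read from the opposite strand to all other protein genes. Its log2 fold change in the authors' deposited table was -0.15 ± 0.20 in heart, 0.04 ± 0.28 in spleen, 0.21 ± 0.28 in kidney, 0.08 ± 0.25 in liver and 0.07 ± 0.15 in brain. The kidney value was the highest of the protein genes there, and in spleen mt-Nd6 and mt-Co3 were the only protein genes above 0. None of the 5 values passed an unadjusted p under 0.05. A difference between mt-Nd6 and the heavy-strand genes was not tested.

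The complex III and complex IV genes lay nearer to 0 in heart and spleen than the complex I median. mt-Cytb had log2 fold changes of -0.19 ± 0.24 in heart, -0.17 ± 0.24 in spleen, -0.18 ± 0.16 in kidney, -0.12 ± 0.19 in liver and -0.01 ± 0.10 in brain in the authors' deposited table. mt-Co1 had -0.16 ± 0.22, -0.12 ± 0.24, -0.08 ± 0.15, -0.03 ± 0.20 and 0.02 ± 0.08 in the same order in the authors' deposited table. mt-Cytb was below 0 in 5 of 5 organs and mt-Co1 in 4 of 5, each within 2 standard errors of 0. mt-Co2 and mt-Co3, the other core subunits of complex IV, lay between -0.16 and 0.05 over the organs in the authors' deposited table. mt-Co3 was the highest protein gene in both heart, at -0.05 ± 0.32, and spleen, at 0.05 ± 0.30, in the authors' deposited table.

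The ATP synthase genes mt-Atp8 and mt-Atp6, which overlap on 1 mRNA, differed most from each other in spleen. There mt-Atp8 was the lowest protein gene, at an implied 0.0303% of the summed level in deficient and 0.0542% in wildtype mice. Its log2 fold change was -0.84 ± 0.44 (unadjusted p = 0.0562, adjusted p = 0.824) in the authors' deposited table, against -0.10 ± 0.27 for mt-Atp6. In heart the authors' deposited table gave -0.38 ± 0.28 for mt-Atp8 and -0.07 ± 0.30 for mt-Atp6. In brain, kidney and liver both genes lay between -0.04 and 0.06 in the authors' deposited table. Part of the reads of mt-Atp6 may stand under its copy Gm10925, whose level was the higher one, and the difference between the partners was not tested.

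The rRNAs gave their largest value in liver. There mt-Rnr2 stood at an implied 0.0953% of the summed level in deficient and 0.0696% in wildtype mice. The authors' deposited table gave a log2 fold change of 0.45 ± 0.20, with an unadjusted p of 0.0228 and an adjusted p of 0.309. mt-Rnr1 had 0.30 ± 0.21 in liver in the authors' deposited table (unadjusted p = 0.143). Both rRNAs were thus higher in deficient livers by a size that the adjusted test did not call, beside a protein-gene median of 0.03. In heart they diverged, at 0.19 ± 0.22 for mt-Rnr1 and -0.20 ± 0.18 for mt-Rnr2 in the authors' deposited table. In brain they had -0.09 ± 0.08 and -0.06 ± 0.09, in kidney -0.07 ± 0.11 and 0.04 ± 0.10, and in spleen 0.02 ± 0.32 and -0.03 ± 0.30 in the authors' deposited table.

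Of the tRNAs, 3 had an unadjusted p under 0.05 in 1 organ each. mt-Tc in kidney stood at an implied 0.952 ppm in deficient and 0.624 ppm in wildtype mice, with a log2 fold change of 0.61 ± 0.22 in the authors' deposited table (unadjusted p = 0.00515, adjusted p = 0.282). Its values elsewhere in the authors' deposited table were -0.32 ± 0.30 in brain, 0.11 ± 0.27 in heart, 0.49 ± 0.29 in liver and -0.98 ± 0.53 in spleen. mt-Tc was therefore higher in deficient mice in 3 organs and lower in 2. mt-Tn in liver had 0.51 ± 0.25 in the authors' deposited table (unadjusted p = 0.0455, adjusted p = 0.436), and between -0.05 and 0.39 in the other 4 organs. mt-Tm in spleen had -4.37 ± 1.78 in the authors' deposited table (unadjusted p = 0.0143), from a mean of 3.13 normalised counts and with no adjusted p, a level at which a fitted fold change rests on a few reads. Of the other 2 among the 5 most abundant, mt-Te lay between -0.86 and 0.58 and mt-Tq between -0.79 and 0.25 in the authors' deposited table. mt-Tp, the most abundant, was at -0.14 ± 0.25 in heart, -0.14 ± 0.23 in spleen, 0.16 ± 0.12 in kidney, 0.18 ± 0.18 in liver and 0.16 ± 0.09 in brain in the authors' deposited table. mt-Tf had 1.01 ± 1.10 in heart, -2.18 ± 4.06 in spleen, 0.99 ± 0.57 in kidney, -0.96 ± 0.72 in liver and 0.10 ± 1.10 in brain in the authors' deposited table.

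**Figure D4:**
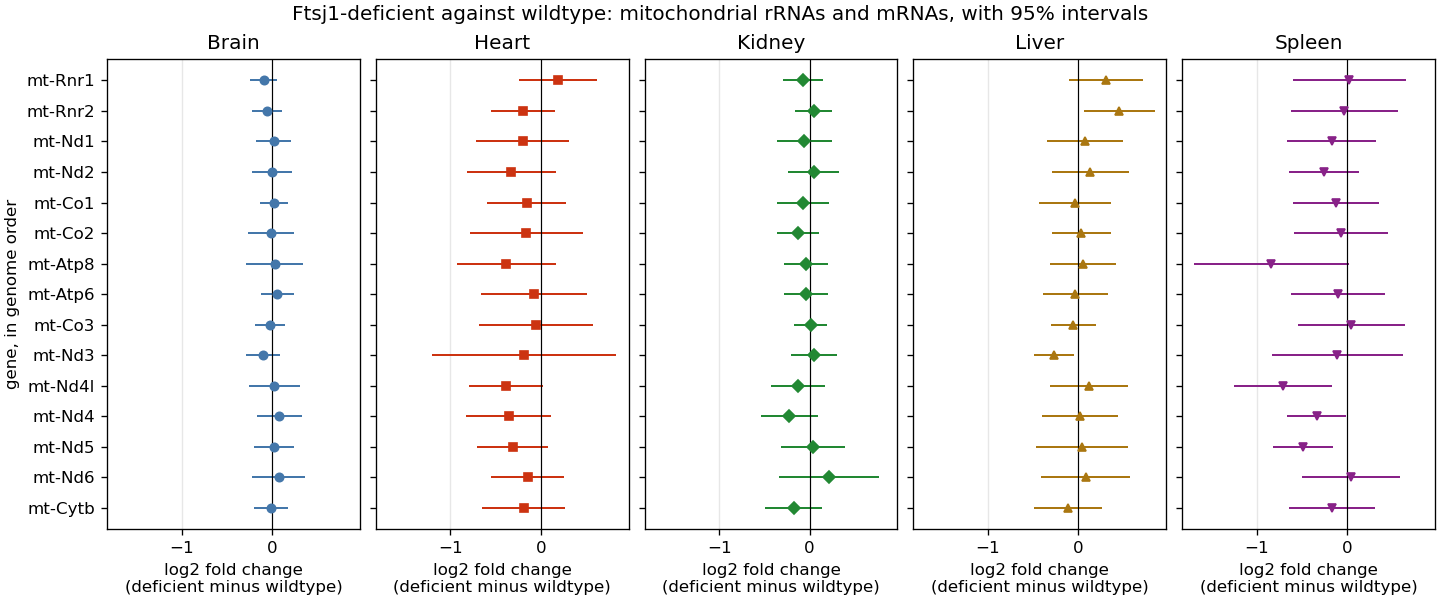
Log2 fold change (x axis, deficient minus wildtype) of the 2 mitochondrial rRNAs and 13 mRNAs, in genome order from top to bottom, in 1 panel per organ, with 95% intervals. The 13 mRNAs of heart all lie below 0 with intervals that include 0, and in spleen mt-Nd4l, mt-Nd4 and mt-Nd5 have intervals wholly below 0.

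Seen as a group, the 13 protein genes had a median log2 fold change of -0.19 in heart (0 above and 13 below), -0.17 in spleen (2 above and 11 below), -0.04 in kidney (5 above and 8 below), 0.03 in liver (8 above and 5 below) and 0.02 in brain (8 above and 5 below 0). The heart values ran from -0.38 for mt-Nd4l to -0.05 for mt-Co3, and the 95% interval of each included 0. The same sign in all 13 genes of heart is a description of 1 set of 6 libraries, since these genes share precursors, libraries and scaling. What the data can bound differs by organ. In brain the intervals of the 13 genes together spanned a fold from 0.821 to 1.28, in liver from 0.709 to 1.49 and in kidney from 0.687 to 1.70. In heart they spanned a fold from 0.432 to 1.78 and in spleen from 0.308 to 1.56. In heart, spleen and kidney the intervals thus reach past a change of 1.5 times for at least 1 gene.

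The fold changes of the protein genes had larger standard errors than those of most other abundant genes. Without values per library, spread between mice cannot be told apart from error of measurement. In the authors' deposited table the median standard error of the protein genes was 0.250 in heart, 0.265 in spleen, 0.147 in kidney, 0.204 in liver and 0.113 in brain on the log2 scale. Over all other genes with a mean level of at least 1000 it was 0.156, 0.173, 0.1005, 0.143 and 0.0941 in the same order. The members' median lay above that of 94.6% of those genes in heart, 85.5% in spleen, 92.7% in kidney, 92.6% in liver and 71.3% in brain.

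Markers of other cell types differed between genotypes in the same organs, and their part in the values above was not tested. In spleen 7 erythroid genes, of which Alas2 is listed at 0, summed to 24855 ppm in deficient and 14268 ppm in wildtype mice, with 6 of the 6 others above 0 in log2 fold change. Neutrophil genes in spleen summed to 423 ppm in deficient and 176 ppm in wildtype mice, with 6 of 6 above 0. No gene of these 2 lists was called in spleen, where 0.0741% of all tested genes were. In heart the erythroid genes summed to 7694 ppm in deficient and 5644 ppm in wildtype mice, and the neutrophil genes to 16.9 ppm in deficient and 8.80 ppm in wildtype mice. No erythroid gene was called in heart. Of the 5 neutrophil genes with an adjusted p in heart, 4 (S100a8, S100a9, Cxcr2 and Csf3r) were called higher in the authors' deposited table, where 0.21% of all tested genes were called higher. S100a8 and S100a9, the subunits of calprotectin, were also called higher in kidney and in liver. In these organs 0.987% and 2.29% of all tested genes were called in either direction. Their log2 fold changes in kidney were 1.24 ± 0.35 (adjusted p = 0.0447) and 1.17 ± 0.31 (adjusted p = 0.0192) in the authors' deposited table. In liver the values were 0.99 ± 0.24 (adjusted p = 0.00429) and 0.88 ± 0.23 (adjusted p = 0.00922) in the authors' deposited table. Kidney neutrophil genes summed to 4.32 ppm in deficient and 2.99 ppm in wildtype mice, and those of liver to 6.73 ppm in deficient and 4.53 ppm in wildtype mice. Markers called lower in the authors' deposited table were single genes of their lists. In heart this was the adipocyte gene Lep. In kidney they were Ttr (choroid plexus list), Ryr2 (cardiomyocyte list) and Serpina1c (hepatocyte list). In liver they were Aqp4 (glia list), Cidec (adipocyte list) and Cd4 (lymphocyte list). The summed level was nevertheless higher in deficient mice for adipocyte genes in heart (465 and 392 ppm) and glia genes in liver (200 and 190 ppm). It was lower for the other lists named. The glia and lymphocyte lists of liver each had 3 genes above 0 and 2 below. Lung epithelium genes in heart came to 0.124 ppm in deficient and 11.2 ppm in wildtype mice, and hepatocyte genes to 7.42 ppm in deficient and 40.2 ppm in wildtype mice. In liver the exocrine pancreas genes summed to 2046 ppm in deficient and 53.2 ppm in wildtype mice. No lung epithelium or hepatocyte gene was called in heart and no exocrine pancreas gene in liver, and the lung epithelium genes had no adjusted p. In whole organs, fewer cells of a type and less RNA per cell cannot be told apart.

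Whether the genotype difference itself varied between organs was tested for each gene with Cochran's Q on the 5 fold changes and standard errors. After Benjamini-Hochberg adjustment over 28693 genes, 225 genes (0.784%) differed between organs, and 0 of 26 members did. Below an unadjusted p of 0.05 lay mt-Tc alone among the members, where 6.28% of all genes passed. It had an adjusted p of 0.431. mt-Nd5 had an adjusted p of 0.941 and mt-Nd4l one of 0.948. The lower values of these genes in spleen are therefore not shown to differ from those in the other organs. The organs came from the same mice, and Q takes them as independent.

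The log2 fold changes of the 7 nuclear copies lay between -0.61 and 0.15 in the authors' deposited table. None was called in any organ in the authors' deposited table, where at most 2.29% of all tested genes were called. In spleen Gm28439, the copy of mt-Nd4, had -0.61 ± 0.19 (unadjusted p = 0.00135, adjusted p = 0.262) in the authors' deposited table, and Gm10222, the copy of mt-Nd4l, had -0.60 ± 0.26 (unadjusted p = 0.0236, adjusted p = 0.686). In heart Gm28439 had -0.47 ± 0.23 in the authors' deposited table (unadjusted p = 0.0444). The median over the 7 copies was -0.15 in heart, -0.22 in spleen, -0.07 in kidney, 0.003 in liver and 0.01 in brain. These copies may hold reads of the same molecules and are no second measurement.

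The nuclear genes that transcribe, cut and modify mitochondrial RNA were not called in any organ. Between 0.0607% (brain) and 2.29% (liver) of all tested genes were called, so 0 called in lists of this size is near the background. Over 16 genes of transcription and replication the median log2 fold change was between 0.01 and 0.09, over 21 genes of RNA processing and stability between -0.03 and 0.04, and over 27 genes of rRNA and tRNA modification between -0.06 and 0.06. Polrmt, the mitochondrial RNA polymerase, had 0.12 ± 0.22 in heart, 0.004 ± 0.13 in spleen, 0.05 ± 0.09 in kidney, 0.10 ± 0.16 in liver and -0.07 ± 0.08 in brain in the authors' deposited table. Tfam, which packages the mitochondrial DNA and starts its transcription, lay between -0.04 and 0.12 in the authors' deposited table. Lrpprc, which binds and stabilises mitochondrial mRNAs, had -0.28 ± 0.14 in heart (unadjusted p = 0.0475, adjusted p = 0.585) and between -0.09 and 0.03 elsewhere in the authors' deposited table. Mrm2, a relative of Ftsj1 that methylates the mitochondrial large rRNA, is listed at 0 in every organ, as is Fastkd5 of the processing list. Medians of 9 biogenesis regulators ran from -0.14 in spleen to 0.14 in liver. Those of 13 chaperones and proteases ran from -0.01 in brain to 0.09 in spleen. In both lists 0 were called, which is again near the background.

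The nuclear partners of the members are genes of the respiratory chain and of the mitochondrial ribosome. In every organ their medians lay on the other side of 0 from that of the 13 mitochondrial protein genes. That median was smaller in size than these genes' median standard error in every organ. In brain, kidney and liver it was near 0, so its side means little. In heart and spleen the opposite sides held for each of complexes I, III, IV and V. In kidney complex I, and in brain and liver complexes III and IV, had both medians on the same side. The other complexes there had them on opposite sides. The protein-gene median was -0.19 in heart, -0.17 in spleen, -0.04 in kidney, 0.03 in liver and 0.02 in brain. Of the nuclear respiratory chain and ATP synthase genes with a mean level of at least 10, 71 were above 0 and 7 below in heart, with a median log2 fold change of 0.27, and 70 above and 8 below in spleen, with a median of 0.24. In brain they had a median of -0.08 (15 above and 64 below), in kidney 0.08 (69 above and 10 below) and in liver -0.13 (7 above and 70 below). The 72 measured mitochondrial ribosomal protein genes had medians of 0.20 in heart, 0.20 in spleen, 0.03 in kidney, -0.08 in liver and -0.02 in brain. Only Ndufs5, an accessory subunit of complex I, was called among these lists. It rose in heart by 0.66 ± 0.18 on the log2 scale (adjusted p = 0.0424) in the authors' deposited table, where 0.21% of all tested genes were called higher. For complex I the nuclear median was 0.28 in heart and 0.25 in spleen, beside -0.31 and -0.26 for the 7 mitochondrial genes. In brain, kidney and liver the nuclear complex I medians were -0.10, 0.06 and -0.13, beside mitochondrial medians of 0.02, 0.04 and 0.07. The difference between the sets was not tested, and both come from the same libraries and scaling.

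**Figure D5:**
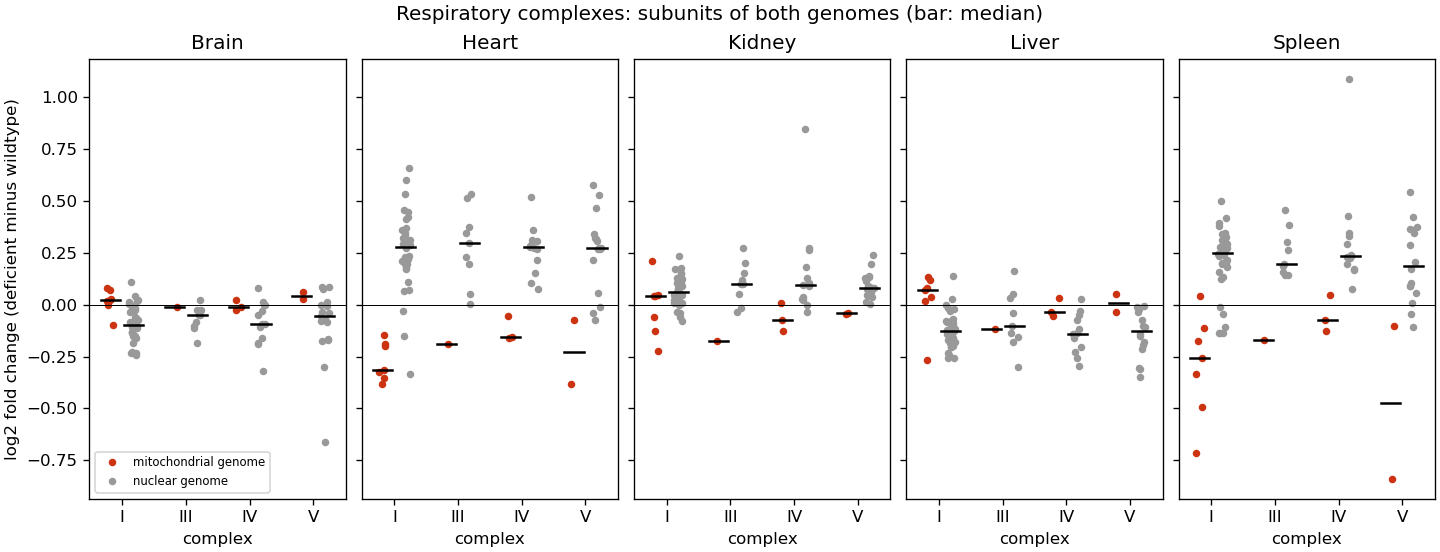
Log2 fold change (y axis, deficient minus wildtype) of the subunits of complexes I, III, IV and V in 5 organs, with genes of the mitochondrial genome in red on the left of each pair, nuclear genes with a mean level of at least 10 in grey on the right, and bars at the medians. In heart and spleen the mitochondrial medians lie below 0 and the nuclear medians above 0, as for complex I at -0.31 and 0.28 in heart.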

How the data were processed

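Poly-A libraries (Illumina stranded mRNA prep) of 5 whole organs from 3 Ftsj1-deficient and 3 wildtype mice were compared by the authors within each organ. Per the submitters' processing notes, the authors used GRCm39, featureCounts, Subread 2.0.3 and DESeq2. The aligner, the annotation, the treatment of reads with several matches and the strand setting are not stated in the sources at hand. Each organ's table, deposited by the authors, holds DESeq2 output and no value per library. Per the file headers, the deposited mean signal is a mean of normalised counts over 6 libraries. The log2 fold change and its standard error on the log2 scale were deposited by the authors. The deposited test score equals the fold change over its standard error. The p-value columns deposited by the authors are two-sided Wald and Benjamini-Hochberg values, and the second is empty after the authors' filter on low levels.

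No count model could be fitted. A gene counts as called at an adjusted p under 0.05. Intervals of 95% are the fold change ± 1.96 standard errors. Shares were computed within each table, since tables were normalised separately. Cochran's Q tested differences between organs. Its check on simulated data used independent organs and large differences, so it covers the code and not the setting of organs from the same mice. Transcript length, strand and sequence came from the GENCODE M21 annotation of GRCm38. No coordinates are given, since that build differs from that of the files. Near-identical nuclear transcripts were found with blastn 2.17.0 (at least 99% identity over at least 100 bases). Named were members with an unadjusted p under 0.05, the highest and lowest protein gene per organ, the 3 with the highest level per organ, both rRNAs, mt-Nd6, the 5 most abundant tRNAs, Polrmt, Tfam, Lrpprc, Mrm2, Ftsj1 and called genes of the pathway and marker lists; further members and the nuclear copies were named after their values were seen. In the list of nuclear respiratory genes, 81 of 94 symbols matched, most of the rest being second names of the same genes. Members and lists were chosen with earlier results of these data known. The alternatives tried were other adjustments, thresholds, centrings, filters and weights. Nothing in the labels says more of the replicates than that they are separate mice, partly brothers. Python 3.11.15, pandas 2.3.3 and scipy 1.17.1 were used.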

Additional observations from a re-analysis of the deposited data

How the results depend on the processing

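The count of called members was 0 in each organ under all 25 alternatives, with a smallest adjusted p between 0.277 and 1.00. Some left out the filter on low values, took genes with a mean level of at least 10 or adjusted the 5 organs together. Others recentred the fold changes or took an adjusted p under 0.1. That looser threshold reuses the deposited adjusted p, whose smallest member value was 0.277, so its count of 0 was fixed beforehand. Recentring, by at most 0.02, could also change little. The test between organs called 0 members under 7 alternatives, with a smallest adjusted p of 0.320. Medians over the members moved by less than the median standard error of the members' fold changes under 25 alternatives and lay between -0.25 and 0.04. That yardstick is wide: with protein genes only, the heart median went from -0.07 to -0.19, against a median standard error of 0.32. Recentring moved fold changes by 0.002 to 0.02 on the log2 scale. The members' share of the summed level depended on what else was counted. Without the 3 most abundant other genes it was 31.5% in heart, 14.0% in kidney, 10.2% in liver, 5.93% in brain and 3.38% in spleen. All 3 were near-identical nuclear copies in heart (Gm10925, Gm28437 and Gm29216) and in brain (Gm10925, Gm28437 and Gm28661). Gm10925 was also among them in kidney. Such copies may hold reads of the members themselves. The near-identical nuclear copies were also added to the members, an alternative chosen after seeing the data. The share was then 39.6% in heart, 18.3% in kidney, 12.4% in liver, 7.92% in brain and 4.80% in spleen. No paired analysis was possible because the tables hold no value per library. The mouse numbers of the genotypes differ, so at most litters could have been matched. Whether the authors' comparison took the litters into account is not known. Without values per library, leaving out single mice could not be done either. It is therefore not known whether 1 library decides a value, and depth per library sets no stated limit.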
